A study of Mus musculus with 6 samples.

Results

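The 10 genes described here encode enzymes that build fatty acids and then lengthen or desaturate them: Acly, Acaca, Acacb, Fasn, Scd1, Scd2, Elovl1, Elovl5, Elovl6 and Fads1. They were taken as every probe set of the deposited table that the platform annotation assigns to exactly 1 of these genes, which gave 27 of 45101 probe sets and 10 of 18193 genes. RNA came from 393P, a mass culture grown out of primary lung tumour tissue of p53R172H∆g/+ K-rasLA1/+ mice, so every culture carries both alleles. The control group was 393P with a scrambled control vector (393P-scr, 3 arrays) and the other group was 393P carrying a construct for a hairpin RNA (shRNA) directed at MKK4 (393P-shZ, 3 arrays). Map2k4 is the gene of MKK4, a stress-pathway kinase upstream of JNK and p38. Both groups are described as triplicate cultures of 1 cell population each, and the test therefore weighs differences against the variation among cultures, not among independent knockdowns.

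Fatty acid synthesis starts from cytosolic citrate, which ATP citrate lyase splits to acetyl-CoA. Acetyl-CoA carboxylase turns that into malonyl-CoA, fatty acid synthase joins malonyl units into palmitate, elongases of the ELOVL family lengthen the chain, and stearoyl-CoA and front-end desaturases place double bonds. Many of these genes are targets of the SREBP transcription factors, which INSIG proteins hold in the endoplasmic reticulum when sterols are plentiful, and proliferating tumour cells commonly make fatty acids themselves.

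Each array was a 1-colour Affymetrix array, and values are deposited intensities in units on a linear scale. Array medians ran from 92 to 95.76 units and the arrays correlated at r = 0.990 to 0.995 across probe sets. No array gave more than 39.47 units on the 3 trpnX probe sets, which target a bacterial sequence, and this value is taken as background. The targeted transcript Map2k4 gave 645 ± 51.8 units (SD, n = 3) in control and 274 ± 29.7 units (SD, n = 3) in shRNA cultures on its brighter probe set, a log2 change of -1.21 (limma, adjusted p = 0.000385). Of 10 epithelial markers all 10 lay above background, with summed intensities of 61340 to 62146 units in control and 59571 to 61074 units in shRNA arrays, and 5 of them, Epcam, Cdh1, Cldn7, Rab25 and Esrp1, fell by limma's test, where 4.24% of all genes and 7.89% of those above the median brightness were called lower. The other 5 had positive changes that did not pass: Krt19 (0.23, adjusted p = 0.0509), Krt8 (0.08), Krt7 (0.04), Cldn4 (0.04) and Krt18 (0.01). Deposited values of the 4 keratins did not overlap between the groups, beside 21.2% of all probe sets and 30.7% of those above the median brightness. After normalization the groups overlapped for Krt18. The part of these markers in the results was not tested. Of 9 measured lung markers 6 lay above background, the brightest being Abca3 at 793 units in control and 713 units in shRNA cultures. Nkx2-1, at 2.32 and 1.38 units, was within background, so the defining transcription factor of lung epithelium was not detected. Of 8 measured adipocyte markers 3 lay above background: Retn (175 and 166 units), Lpl (74.3 and 64.8 units) and Lipe (57.2 and 53.3 units), given as control and shRNA means. Adipoq (16.6 and 17.7 units), Lep (1.05 and 1.76 units) and Cidec (2.26 and 1.10 units) were among those that did not. Fibroblast, leukocyte and endothelial lists had 6 of 10, 5 of 9 and 6 of 10 markers above background, and none of their members, nor of the adipocyte or lung lists, passed the test in either direction.

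Of the 10 enzymes, Acaca, Acly, Scd1 and Elovl5 rose in the shRNA cultures, by 12.3% to 26.3% on their brightest probe sets. Fasn was higher by a similar amount without passing the test, and Acacb, Scd2, Elovl1, Elovl6 and Fads1 did not pass either. No member fell: limma with Benjamini-Hochberg adjustment over all 45037 tested probe sets called 4 of 10 genes higher and 0 lower. At an unadjusted p under 0.05 the counts were 5 and 0, beside 8380 of the 45037 probe sets in either direction. By the adjusted p, 5.22% of the 18193 genes were called higher and 4.24% lower on their brightest probe sets. Among genes above the median brightness, where 9 of these enzymes lie, 9.09% were called higher and 7.89% lower. The median log2 change of the 10 genes was 0.12, against -0.0067 over all genes. Fold and percent changes are on the log2(intensity + 16) scale after quantile normalization, which understates changes of dim probe sets. They therefore differ somewhat from ratios of the deposited means. In RNA from whole cultures a change in the make-up of the cells and a change in RNA per cell cannot be told apart.

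Counted over probe sets, 6 of the 27 (22.2%) were called higher and 0 lower. Over all probe sets 3.57% were called higher and 2.8% lower, 6.37% in either direction, so that 56% of calls were higher (66.7% with the values as deposited), and of those above the median brightness 6.55% were called higher. At an unadjusted p under 0.05, 11 were higher and 1 lower, beside 8380 of all 45037 probe sets in either direction. The groups did not overlap in 12 of the 27, 11 of them higher, against 21.2% of all probe sets and 30.7% of the brighter ones. The count of 6 fell to 3 when control replicate 2, shRNA replicate 2 or shRNA replicate 3 was left out, and 25 of the 27 had a mean above the trpnX controls.

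**Figure D1:**
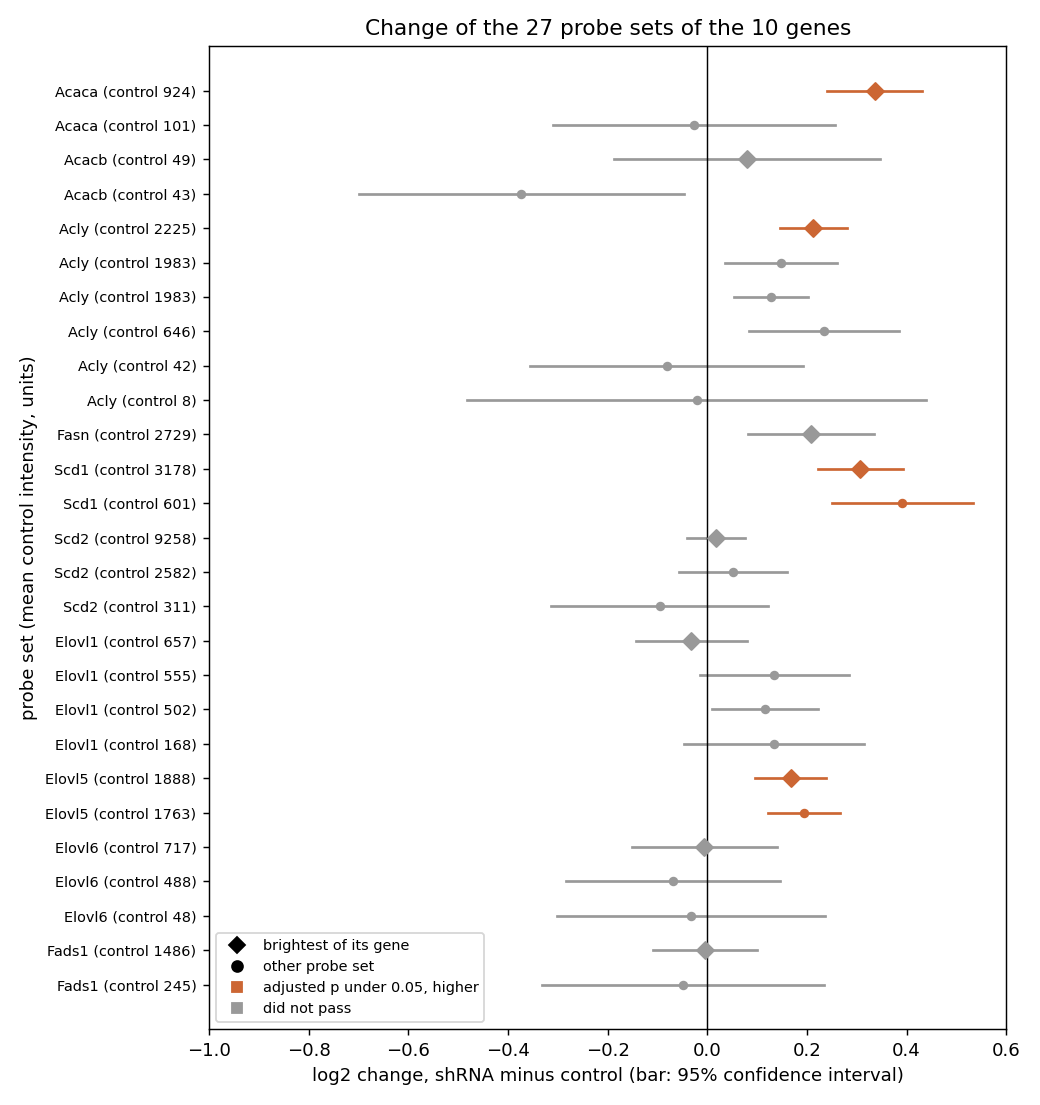
Log2 change (shRNA minus control, horizontal axis) of the 27 probe sets, labelled by gene and mean control intensity in units; bars are 95% confidence intervals, diamonds mark the brightest probe set of a gene and orange marks an adjusted p under 0.05. The 6 orange probe sets belong to Acaca, Acly, Scd1 and Elovl5, and the widest intervals belong to the dim probe sets of Acly and Acacb.

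The first step of the pathway was higher on every bright probe set. Acly, which encodes ATP citrate lyase, gave 2208, 2239 and 2228 units in the control arrays and 2554, 2666 and 2629 units in the shRNA arrays on probe set 1451666_at. All 3 shRNA arrays lay above all 3 controls, and the control arrays hardly differed among themselves. The means were 2225 ± 15.7 and 2616 ± 57.2 units (SD, n = 3), a rise of 15.9% (log2 0.21, SE 0.0287, adjusted p = 0.00627). The 3 other Acly probe sets above 600 units gave log2 changes of 0.15, 0.13 and 0.23 without overlap between the groups, but with adjusted p of 0.138, 0.061 and 0.0866 they did not pass. The 2 dim ones, at control means of 42.3 and 8.49 units, gave -0.08 and -0.02. Acly passed in 14 of 17 alternative settings. With all 6 averaged, it was at 0.10 and did not pass (0.341), nor did it without a trend in the prior variance (0.0990).

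Of the carboxylase genes, Acaca rose and Acacb did not pass. Acaca encodes the cytosolic acetyl-CoA carboxylase that supplies malonyl-CoA for synthesis. Its probe set 1434185_at gave 935, 941 and 897 units in control and 1169, 1170 and 1198 units in shRNA arrays. The gap between the groups was several times the spread within either, at 924 ± 23.8 against 1179 ± 16.8 units (SD, n = 3), and the rise of 26.3% (log2 0.34, 95% confidence interval 0.24 to 0.43, adjusted p = 0.00411) was the largest among the brightest probe sets of the 10 genes. The second Acaca probe set, at 101 ± 9.34 and 100 ± 15.0 units (SD, n = 3), gave -0.03 with an interval of -0.31 to 0.26. That interval does not reach the 0.34 of the brighter one but overlaps its interval. The mean of both probe sets was 0.16 and did not pass (adjusted p = 0.128). Acacb, the gene of the carboxylase at the mitochondrial surface, whose malonyl-CoA restrains fatty acid oxidation, was close to background on both of its probe sets. The brighter, at 49.0 ± 3.98 and 52.6 ± 4.32 units (SD, n = 3), gave 0.08, and the other went from 42.7 ± 2.35 to 29.8 ± 8.04 units (SD, n = 3), a level within background, without overlap between the groups and at an adjusted p of 0.201. The within-array difference of Acaca and Acacb shifted by 0.26 (exact two-sided permutation p = 0.1, the smallest that 3 against 3 allows, and 0.133 adjusted over 4 pairs of members that were chosen after their values were seen).

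Fasn, the gene of the multifunctional fatty acid synthase, has 1 probe set here. It gave 2546, 2859 and 2781 units in control and 2991, 3279 and 3263 units in shRNA arrays. The groups did not overlap, yet the lowest shRNA array lay only a little above the highest control array. The means were 2729 ± 163 and 3177 ± 162 units (SD, n = 3), with a fitted change of 15.5% (log2 0.21, interval 0.08 to 0.33, adjusted p = 0.0729). Fasn therefore did not pass, although its change is as large as that of Acly, whose replicates were tighter. It passed in 2 of 17 alternative settings, without the dimmer probe sets (0.00775) and with 1 probe set per gene (0.0417).

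**Figure D2:**
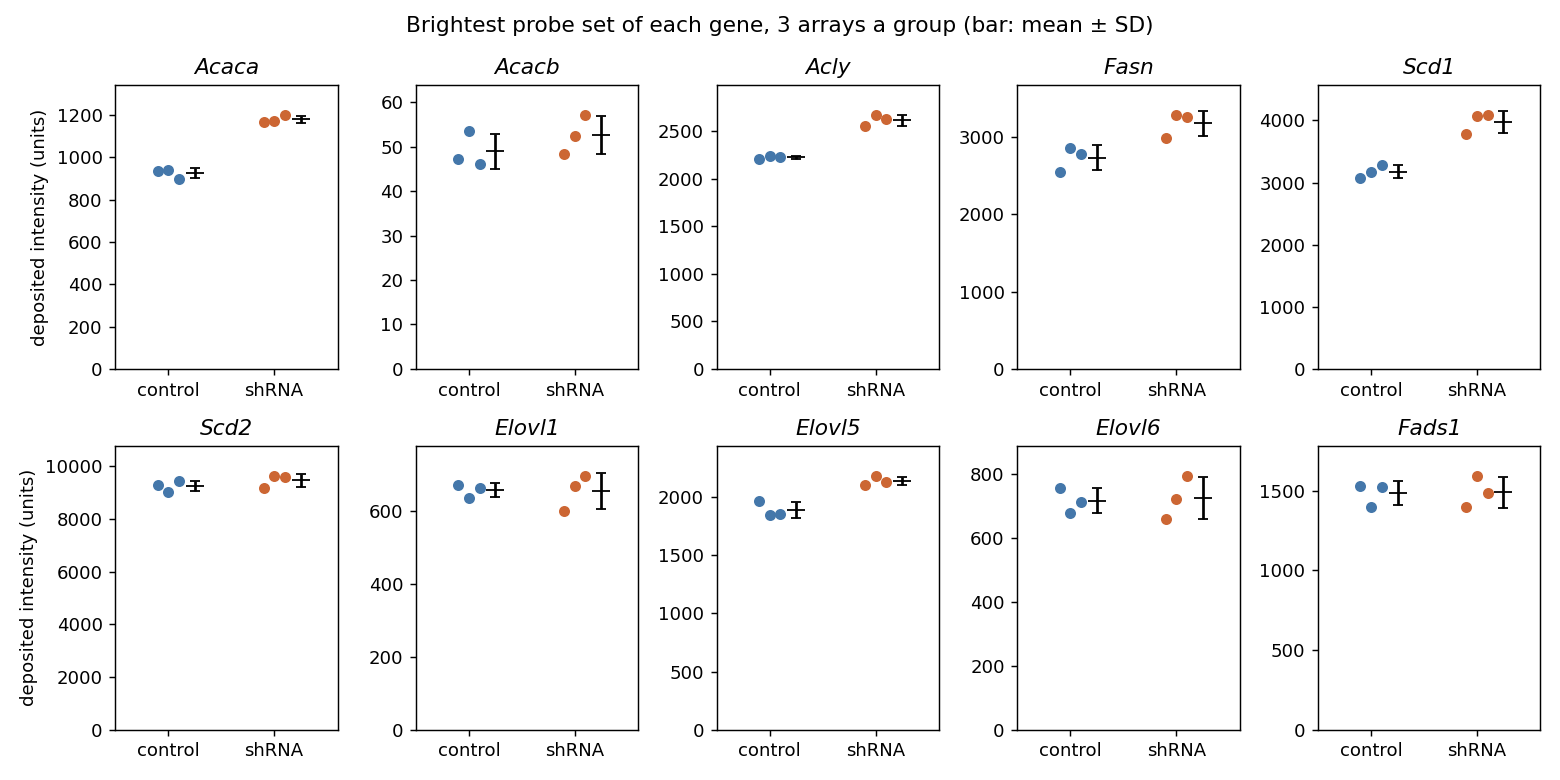
Deposited intensity in units (vertical axes start at 0) of the brightest probe set of each of the 10 genes in 3 control and 3 shRNA arrays; points are arrays, bars beside them mean ± SD. The groups separate for Acaca, Acly, Fasn, Scd1 and Elovl5 and overlap for the other five.

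Acly, Acaca and Fasn, together with Map2k4, lie on chromosome 11 (GRCm38.p6). Genes of this chromosome were higher as a group: 12.9% of its 1443 measured genes were called higher and 1.66% lower, against 5.22% and 4.24% over all genes, with a median log2 change of 0.057. Centring by chromosome took a shift of 0.068 out of chromosome 11. Acaca was then at 0.27 (adjusted p = 0.00761) and Acly at 0.14 (0.0279), both still called, and Fasn at 0.14 (0.182). Chromosomes 13 and 15 had similar shares called higher, 13.1% and 14%. Chromosome 2 went the other way, with 13.2% called lower and 1.64% higher. Of the called genes given below, Cyb5r3 lies on chromosome 15, and Agpat2, Hacd1 and Trib3 lie on chromosome 2. The part of chromosome-wide shifts in the changes of these genes was not tested. Scd1, Scd2 and Fads1 lie on chromosome 19, where the median was -0.044, Elovl1 on chromosome 4, Elovl5 on chromosome 9, Elovl6 on chromosome 3 and Acacb on chromosome 5.

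The stearoyl-CoA desaturase genes, neighbours on chromosome 19 with Scd3 and Scd4, are given here side by side: Scd1 rose and Scd2 did not pass. These enzymes place the first double bond, turning stearate and palmitate into oleate and palmitoleate. Scd1 gave 3080, 3170 and 3284 units in control and 3777, 4077 and 4082 units in shRNA arrays on probe set 1415964_at. Every shRNA array lay clearly above every control array. The means were 3178 ± 102 and 3979 ± 175 units (SD, n = 3), a rise of 23.8% (log2 0.31, SE 0.0363, adjusted p = 0.00369), and the second probe set rose by 31.2%, from 601 ± 38.8 to 806 ± 54.4 units (SD, n = 3, adjusted p = 0.0107). Scd2 gave 9301, 9040 and 9432 units in control and 9192, 9633 and 9590 units in shRNA arrays, with the groups overlapping. Its log2 change was 0.02 with an interval of -0.04 to 0.08, so a rise of the size seen for Scd1 lies outside it, and its other probe sets gave 0.05 and -0.09. The within-array log2 difference of Scd1 and Scd2 was -1.59 to -1.51 in control and -1.26 to -1.23 in shRNA arrays, a shift of 0.29. An exact two-sided permutation test of that shift gave p = 0.1, again the smallest possible, and 0.133 adjusted over the 4 pairs. Scd1 passed in 16 of 17 alternative settings, the exception being no trend in the prior variance (0.0581).

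Among the elongases Elovl5 alone was called. ELOVL5 extends polyunsaturated chains of intermediate length. Its x-type probe set, a type that can match several transcripts, gave 1966, 1843 and 1854 units in control and 2108, 2180 and 2128 units in shRNA arrays. The groups did not overlap, and the rise was 12.3%, from 1888 ± 68.0 to 2139 ± 37.4 units (SD, n = 3, log2 0.17, adjusted p = 0.0198). The other probe set, which is not of that type, rose by 14.4%, from 1763 ± 27.6 to 2031 ± 115 units (SD, n = 3, adjusted p = 0.0123). The call on the brighter probe set is the least stable of the 4: it passed in 8 of 17 alternative settings. Among the 9 others, it was lost without control replicate 2 (0.0770), control replicate 3 (0.0781), shRNA replicate 1 (0.0581), shRNA replicate 2 (0.0786) or shRNA replicate 3 (0.0553), with the values as deposited (0.0505) or median-centred (0.0777), and without a trend (0.169).

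Elovl6, which encodes the elongase that takes palmitate to stearate, gave 757, 679 and 714 units in control and 661, 723 and 794 units in shRNA arrays. The shRNA arrays spanned the control range, and the log2 change of -0.01 had an interval of -0.15 to 0.14; its other probe sets gave -0.07 and -0.03. Elovl1, whose product extends saturated and monounsaturated very long chains, has 4 probe sets, none of which passed: the brightest, at 657 ± 18.4 and 654 ± 48.8 units (SD, n = 3), gave -0.03, while the other 3 gave 0.12 to 0.13 with adjusted p of 0.225 to 0.434. The within-array difference of Elovl5 and Elovl6 shifted by 0.17 between the groups, with ranges of 1.34 to 1.43 in control and 1.40 to 1.65 in shRNA arrays that overlap (exact two-sided permutation p = 0.2, also 0.2 adjusted over the 4 pairs). Between Elovl5 and the brightest Elovl1 probe set the shift was 0.20 without overlap (exact permutation p = 0.1, adjusted over the pairs 0.133). The other 3 Elovl1 probe sets, at 0.12 to 0.13, lay closer to the 0.17 of Elovl5, and their differences from it were not tested.

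Fads1, which encodes the delta-5 desaturase of arachidonate synthesis, gave 1531, 1401 and 1527 units in control and 1396, 1592 and 1485 units in shRNA arrays. The groups overlapped fully, the log2 change was -0.0044 with an interval of -0.11 to 0.10, and the second probe set gave -0.05. Its neighbour on chromosome 19, the delta-6 desaturase gene Fads2, gave -0.08 (adjusted p = 0.471). Of the fatty acid desaturase genes whose values are given here, Scd1 was called, and Scd2, Fads1 and Fads2 did not pass.

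The members' values also differed between the shRNA arrays. Over the 10 brightest probe sets, the median log2 value relative to the control mean was 0.071 in shRNA replicate 1, 0.12 in replicate 2 and 0.17 in replicate 3, against -0.015, -0.0017 and 0.024 in the control arrays. In shRNA replicate 1 the value lay above the control mean for 5 of 10 genes, in replicate 2 for 8 and in replicate 3 for 9. Acaca, Acly, Fasn, Scd1 and Elovl5 were above it in all 3. These counts were not set against all genes. The called genes did not all follow the order of the medians. In replicates 1, 2 and 3 Acaca was at 0.39, 0.27 and 0.35, Acly at 0.23, 0.21 and 0.21, and Elovl5 at 0.20, 0.16 and 0.14. Scd1 did follow it, at 0.27, 0.32 and 0.33.

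The sequence before the transcription start is shown for Acly and Elovl5, which rose, and for the elongase gene Elovl6, which did not pass, to set members that were called beside one that was not. Each is the 250 bases before the start (RefSeq, GRCm38.p6), 5′ to 3′ on the strand of the gene, with matches to CCAAT (the box bound by NF-Y), GGGCGG (the Sp1 box), CACGTG (an E-box) and TCACNCCAC (a sterol element form) on either strand in capitals, so that CCGCCC and ATTGG are GGGCGG and CCAAT on the opposite strand; no matches overlap in these windows. Acly lies at chr11:100528001-100528250 on the minus strand, Elovl5 at chr9:77917115-77917364 and Elovl6 at chr3:129532136-129532385, both on the plus strand.
Acly: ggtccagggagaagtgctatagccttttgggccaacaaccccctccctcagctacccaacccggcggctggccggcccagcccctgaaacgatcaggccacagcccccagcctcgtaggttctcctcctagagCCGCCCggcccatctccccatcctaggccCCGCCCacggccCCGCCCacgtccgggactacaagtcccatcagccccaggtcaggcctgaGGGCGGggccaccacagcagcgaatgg
Elovl5: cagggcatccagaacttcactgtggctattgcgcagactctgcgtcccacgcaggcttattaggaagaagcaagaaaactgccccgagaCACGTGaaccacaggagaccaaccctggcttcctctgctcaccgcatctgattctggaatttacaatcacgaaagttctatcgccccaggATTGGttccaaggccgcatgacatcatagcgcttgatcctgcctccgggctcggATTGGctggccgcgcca
Elovl6: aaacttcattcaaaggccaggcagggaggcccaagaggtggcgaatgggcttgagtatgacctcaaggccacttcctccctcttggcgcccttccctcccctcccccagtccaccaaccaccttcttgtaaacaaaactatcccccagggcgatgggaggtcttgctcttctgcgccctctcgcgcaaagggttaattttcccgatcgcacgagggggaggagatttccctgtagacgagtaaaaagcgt
The Acly window holds 4 GGGCGG matches and none of the other motifs, the Elovl5 window 2 CCAAT matches and 1 CACGTG match 161 bases before the start, and the Elovl6 window none of the 4 motifs. Of 32851 windows of this length, 33.8% hold CCAAT, 32.7% GGGCGG, 6.02% CACGTG and 1.05% TCACNCCAC. Of the 10 genes 7 were matched to 8 windows (all but Scd1, Scd2 and Fads1). The Fasn window held 3 CCAAT matches, that of Acacb 1, and the 2 windows of Elovl1, which did not pass, 6 and 2 matches in all. That of Acaca, which was called, held none. A match describes letters only.

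The other genes of lipid synthesis were read from 5 lists, of which 89 of 94 genes were measured: 13 rose, 5 fell and 71 did not pass, with a median log2 change of 0.046. That is 14.6% higher and 5.62% lower, beside 5.22% and 4.24% over all genes and 9.09% and 7.89% over genes above the median brightness. Of the control arrays, leaving out replicate 2 or 3 changed the 13 rises to 7 or 8; of the shRNA arrays, leaving out replicate 2 or 3 changed them to 7 or 5. In turn, the 5 falls became 1 to 3 with any 1 array left out.

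**Figure D3:**
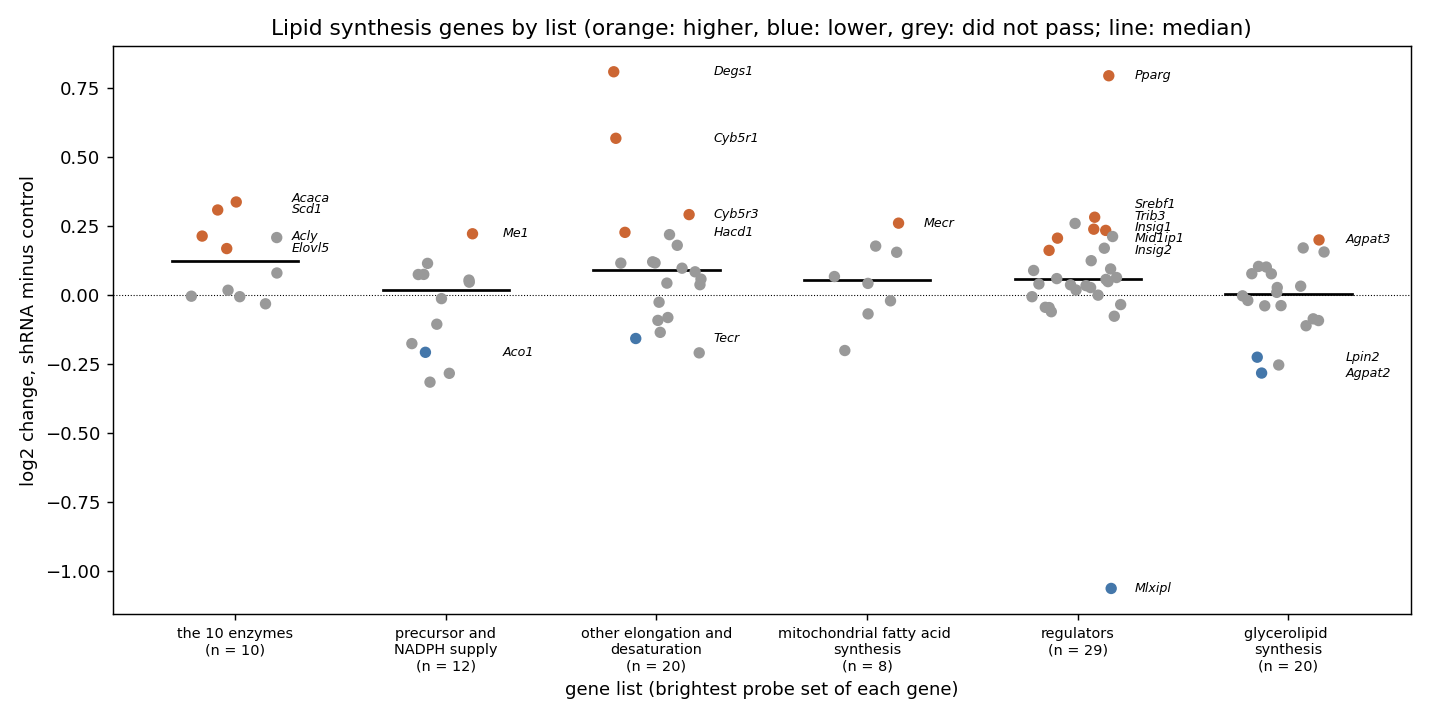
Log2 change (shRNA minus control) of the brightest probe set of each gene in 6 lists; orange points were called higher, blue lower, grey did not pass, and lines are list medians. The 10 enzymes have the highest median, 0.12, and Degs1 (0.81) and Pparg (0.79) stand highest. Mlxipl lies within background in both groups, and its plotted value is set by the pseudocount.

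Regulators of the pathway gave 6 rises and 1 fall among 29 measured. That is 20.7% and 3.45%, beside 9.09% and 7.89% of genes above the median brightness. Srebf1, which encodes SREBP-1, the activator of fatty acid synthesis genes, gave 1108, 1152 and 1192 units in control and 1349, 1475 and 1407 units in shRNA arrays. The groups did not overlap, and the rise was 21.5% (1151 ± 42.0 to 1410 ± 63.0 units, SD, n = 3, adjusted p = 0.0126). Srebf1 lies on chromosome 11, and after centring by chromosome it rose by 0.21 (0.0260). The call was lost without control replicate 2 (0.0583) or without shRNA replicate 1 (0.0502), 2 (0.0712) or 3 (0.0556). Srebf2, the gene of the sterol-directed SREBP-2, gave 0.17 on its brightest probe set and did not pass (0.0952), and 0.02 on the other. Insig1, an SREBP target whose product retains SREBP, rose from 2033 ± 63.4 to 2415 ± 170 units (SD, n = 3, log2 0.23, adjusted p = 0.0271), a call that was kept without shRNA replicate 1 (0.0456) and lost with any other array left out (0.0522 to 0.115), with the values as deposited (0.0593) and with centred medians (0.0511). Pparg, the gene of the fat cell nuclear receptor, rose by 0.79 and Trib3, a pseudokinase gene of the stress response, by 0.24 (adjusted p = 0.00430 and 0.00434). Insig2 (0.16) and Mid1ip1 (0.21), whose product promotes assembly of acetyl-CoA carboxylase into filaments, also rose; these 2 were named after their values were seen. Insig2 did not pass with any 1 array left out (adjusted p = 0.0679 to 0.140), and Mid1ip1 did not pass without control replicate 3 (0.0764) or shRNA replicate 1 (0.0813), 2 (0.117) or 3 (0.0860). The fall was that of Mlxipl, the gene of the glucose-responsive factor ChREBP, which at 21.0 units in control and 1.63 units in shRNA arrays lay within background in both, so no fold is given; its fitted change depends on the pseudocount.

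Supply of precursors and NADPH gave 1 rise and 1 fall among 12 genes. At 8.33% each, these shares are close to the 9.09% higher and 7.89% lower among genes above the median brightness. Me1, the cytosolic malic enzyme that yields NADPH for synthesis, rose by 16.6%, from 2226 ± 52.6 to 2626 ± 117 units (SD, n = 3, adjusted p = 0.0193), and by 21.4% on its other probe set; leaving out control replicate 1 (0.0749), control replicate 2 (0.0856), shRNA replicate 1 (0.0702) or shRNA replicate 3 (0.0766) ended the first of these calls. Aco1, the cytosolic aconitase, fell by 0.21 on the log2 scale, from 3137 to 2747 units (0.0107), and passed in 12 of 17 alternative settings. The call was lost without control replicate 3 (0.0509), without the s, x and a probe set types (-0.13, 0.188) and with averaged probe sets (-0.14, 0.265). Its other probe sets gave -0.13 and -0.07 and did not pass.

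Among 20 other genes of elongation and desaturation 4 rose and 1 fell, 20% and 5% beside 9.09% and 7.89% of genes above the median brightness. Degs1, a sphingolipid desaturase gene rather than one of fatty acid synthesis, went from 689 ± 36.6 units in control to 1234 ± 68.4 units in shRNA cultures (SD, n = 3), a 1.75-fold rise, with 1.69-fold on its other probe set. Cyb5r1 and Cyb5r3 encode cytochrome b5 reductases, and CYB5R3 feeds electrons to the stearoyl-CoA desaturases. Cyb5r1 was at 1633 ± 123 and 2442 ± 90.1 units (SD, n = 3), a 1.48-fold rise. Cyb5r3 rose by 0.29, 0.20 and 0.21 on the log2 scale on 3 of its probe sets, while its dimmest gave -0.50 (adjusted p = 0.465). With its probe sets averaged Cyb5r3 was at 0.050 and did not pass (0.824). Hacd1, a dehydratase gene of the elongation cycle, rose by 0.23 (0.0110). Leaving out control replicate 2 (0.0501), control replicate 3 (0.0508), shRNA replicate 2 (0.0595) or shRNA replicate 3 (0.0567) ended that call, as did the values as deposited (0.0686) and centred medians (0.0696), and it passed in 8 of 16 settings. The fall, named after its value was seen, was that of Tecr, the reductase that closes the elongation cycle, from 3356 to 3038 units (-0.16, 0.0380) and by -0.14 on its other probe set (0.0341). Tecr did not pass with any 1 array left out (0.0670 to 0.135). The cytochrome b5 genes Cyb5a (-0.03) and Cyb5b (0.12) did not pass.

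Mitochondrial fatty acid synthesis, a separate route that makes the lipoate precursor, had 1 rise among 8 genes (12.5%, beside 9.09% of genes above the median brightness). The rise was that of the reductase gene Mecr (0.26, adjusted p = 0.0342). Mecr passed in 6 of 17 alternative settings, of those that leave out 1 array only without shRNA replicate 1 (0.0438). Its second probe set gave 0.25 without overlap between the groups (0.0513) and its dimmest gave -0.24 (0.308), so neither passed. With averaged probe sets Mecr was at 0.09 (0.324). Of 20 glycerolipid synthesis genes Agpat3 rose (0.20, 0.0128) and Agpat2 (-0.28, 0.0141) and Lpin2 (-0.22, 0.0291) fell. That is 5% higher and 10% lower, beside 9.09% and 7.89% of genes above the median brightness. AGPAT enzymes add an acyl chain to lysophosphatidic acid, and LPIN2 is a phosphatidate phosphatase. The other Agpat3 probe sets gave -0.06 to 0.01, and its call was lost without shRNA replicate 3 (0.0564) and with averaged probe sets (0.04, 0.673). Agpat2 passed in 9 of 17 settings. It was lost with the values as deposited (0.0674), with centred medians (0.0514), and without control replicate 2 (0.0582), control replicate 3 (0.0532), shRNA replicate 1 (0.0503) or shRNA replicate 3 (0.0653). Lpin2 passed in 5 of 17 settings and in none of the 6 that leave out 1 array.

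**Figure D4:**
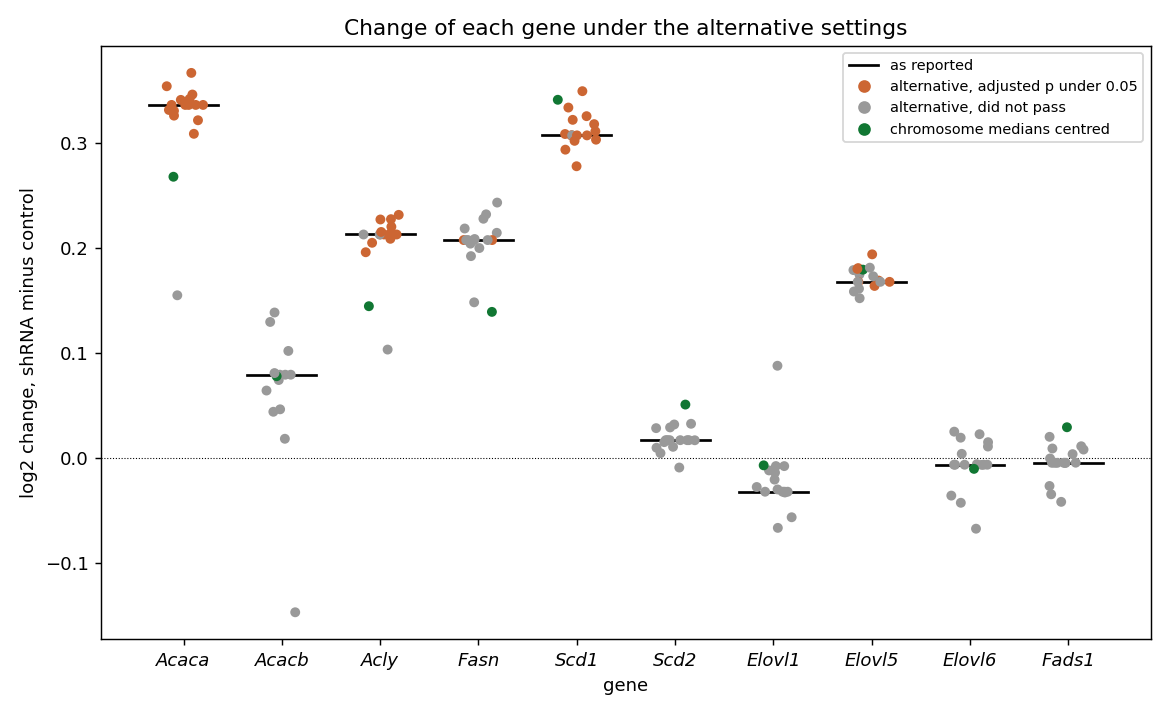
Log2 change of each of the 10 genes as reported (line) and under each alternative setting (points: orange passed at an adjusted p of 0.05, grey did not, green is chromosome centring, shown whatever its p). Acaca, Acly, Fasn, Scd1 and Elovl5 stay above 0 throughout, the lowest being 0.10 for Acly with its probe sets averaged, while Acacb ranges from -0.15 to 0.14 and Elovl1 from -0.07 to 0.09, both across 0, as do Scd2, Elovl6 and Fads1.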

How the data were processed

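RNA from 6 cultures of 393P was hybridised, as the labels' protocols describe, to Affymetrix arrays of 1 colour. For the hairpin they name retroviral infection in one place and transfection in another. What was deposited is 1 linear intensity per probe set and array. How the authors summarised, background-corrected and normalized these intensities is not given in the sources used here, and array number limits precision.

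Intensities were quantile-normalized, 16 was added and log2 taken. Groups were compared with limma 3.58.1 in R 4.3.3 (lmFit and eBayes, the prior variance following a trend with intensity, group as the single term), adjusted by Benjamini-Hochberg at 0.05 over 45037 probe sets, with 64 control probe sets left out. Means and SDs are of deposited values. A gene is represented by its brightest probe set over all 6 arrays. In the platform annotation 34945 probe sets name 1 gene, 932 name several and 9160 are unnamed; 18031 of 18193 genes were matched by Entrez number to the reference table.

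The members, the gene lists, the tests and the alternatives were chosen with earlier results of these data known. Named genes were the 10 members, Map2k4, up to 4 called genes of each pathway list by size, and Srebf1, Srebf2, Fads2 and Insig1. Single markers, Cyb5a, Cyb5b, Tecr, Insig2 and Mid1ip1 were named after their values were seen. Alternatives for Tecr, Insig2 and Mid1ip1 were added after seeing the data. On simulated data with 45037 probe sets, of which 200 were changed, 39% of changes of 0.5 and 68% of changes of 1 on the log2 scale were recovered, and unchanged probe sets made up 5.31% of calls. The called members changed by less, 0.17 to 0.34 on their brightest probe sets, and the simulation did not cover changes of that size. The 17 alternatives were the deposited values, centred medians, pseudocounts of 1 and 64, leaving out dimmer probe sets, 1 probe set per gene, averaged probe sets, leaving out the s, x and a types of probe set (those able to match more than 1 transcript), no trend, the replicate block, chromosome centring and leaving out each array in turn.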

Additional observations from a re-analysis of the deposited data

How the results depend on the processing

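The direction of Acaca, Acly, Fasn, Scd1 and Elovl5 held in all 17 alternatives, and no member gene was called lower in any of them. Against 4 member genes called higher as reported, the count was 3 to 4 with 1 array left out, 2 with averaged probe sets, 1 without a trend and 2 with the replicate block. Against 6 member probe sets it was 3 to 6 with 1 array left out, 10 without the dimmer probe sets, 1 without a trend and 3 with the replicate block. Pathway genes higher, 13 as reported, were 5 to 9 with 1 array left out, 4 without the s, x and a probe set types, 4 without a trend and 7 with the replicate block. Pathway genes lower, 5 as reported, were 1 to 3, 2, 1 and 1 in that order, and 2 both as deposited and with centred medians. Probe sets called in all, 2868 as reported (56% higher), were 1178 to 1864 with 1 array left out, 1842 as deposited (66.7% higher), 4317 without the dimmer probe sets, 1705 without the s, x and a types, 937 without a trend and 1141 with the replicate block. Arrays sharing a replicate letter did not deviate together (r = -0.034, -0.0076 and -0.114), so the letters do not pair them. With the block Acly (adjusted p = 0.0526) and Elovl5 (0.0838) did not pass, nor did Aco1, Hacd1, Mecr, Srebf1, Agpat2, Agpat3, Lpin2, Tecr, Insig2 and Mid1ip1 (0.0580 to 0.170). Without a trend Acly, Scd1 and Elovl5 did not pass, nor did any called pathway gene but Degs1, Cyb5r1, Cyb5r3, Pparg and Mlxipl.

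Signs turned only for changes near 0 or on other probe sets, and none of the turned values passed. Elovl6 (-0.0062 as reported) was at 0.015 as deposited, 0.011 with centred medians and -0.067 to 0.025 with 1 array left out. Fads1 (-0.0044) was at 0.0039 as deposited, 0.030 after chromosome centring and -0.042 to 0.020 with 1 array left out. With averaged probe sets Acacb was at -0.15, Scd2 at -0.0089 and Elovl1 at 0.088. Without the s, x and a probe set types Cyb5r3 was at -0.50 and Agpat3 at -0.064 on dimmer probe sets, and Elovl1 has no value. Acacb has none without the dimmer probe sets, and member probe sets were not counted where a gene enters as 1 value. The cause of the other changes was not tested. Intensities near the trpnX controls, as for Acacb, limit what can be read from them.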
